A study of Mus musculus with 12 samples.

Results

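The genes followed were 9, chosen by symbol: 5 subunits or activators of the phagocyte NADPH oxidase (Cybb, Cyba, Ncf1, Ncf4 and Rac2), 2 enzymes that compete for arginine (Nos2 and Arg1) and 2 superoxide dismutases (Sod2 and Sod3). All 9 were found among the 23238 gene symbols counted, each on a single row, and all 9 were among the 16484 genes that passed the filter on low counts. RNA had been sequenced from mouse lung in 4 groups of 3 libraries: unirradiated lung, labelled NoIR, and lung taken 8, 11 and 14 days (d) after irradiation. Irradiated tissue was sampled from within the irradiated field, and no other treatment or allele is named. The sources used here give neither the radiation dose nor the strain, sex or age of the mice, nor the area from which unirradiated tissue came. Nothing in the labels makes the replicates separate animals, and the p-values below then measure only how far these libraries spread, which may be technical.

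The phagocyte NADPH oxidase is a multi-subunit enzyme that passes electrons from NADPH across a membrane to oxygen and so makes superoxide, chiefly in neutrophils, monocytes and macrophages. Its catalytic chain is encoded by Cybb and held in the membrane by the product of Cyba, and it is switched on when cytosolic subunits, among them those encoded by Ncf1 and Ncf4, and a Rac GTPase join it. Superoxide is turned into hydrogen peroxide by superoxide dismutases, in mitochondria by the product of Sod2 and outside cells by that of Sod3, which is abundant in lung. Nitric oxide, made from arginine by the inducible synthase Nos2, reacts with superoxide, and arginase (Arg1) draws on the same arginine to make ornithine and urea. In mouse macrophages Nos2 is commonly used as a marker of classical activation and Arg1 of alternative activation.

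Library totals lay between 26164354 and 27765751 counts in NoIR lung, 20792968 and 22660158 at 8 d, 19624554 and 24502421 at 11 d and 22615862 and 25524425 at 14 d. On the first principal component of the genes averaging 5 CPM or more, which carried 63.6% of the variance, 11 d replicate 1 lay at 38.6, within the range of the 14 d libraries (24.9 to 39.4), while 11 d replicates 2 and 3 lay at 15.8 and 16.5. In the 14 d group replicate 2 was the one at 24.9, beside 38.6 and 39.4. By the chi-square of counts per degree of freedom the replicates furthest apart were 8 d replicates 1 and 2 (84.9) and 14 d replicates 2 and 3 (74.0), with 59.0 for 11 d replicates 1 and 2. Values without 11 d replicate 1 and without 14 d replicate 2 are given beside the results at those times where they move a count or a call. Other libraries are named where leaving them out ends a call of the 9 genes. Levels are CPM, counts scaled to a common library size, and a gene was called where the Benjamini-Hochberg adjusted p of the edgeR quasi-likelihood test, over all 16484 genes, was below 0.05.

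The promoters of Cybb, Ncf1 and Cyba are shown because these subunit genes moved together over the 12 libraries. Each window runs from 250 bases before to 50 bases after the RefSeq start site on GRCm38.p6, read 5′ to 3′ on the gene's own strand, and the capitals mark every match on either strand to GAAA, NN and GAAA in a row, the repeat found in elements bound by interferon regulatory factors. The windows are chrX:9469275-9469574 (minus strand) for Cybb, chr5:134229576-134229875 (minus strand) for Ncf1 and chr8:122432891-122433190 (minus strand) for Cyba.
Cybb: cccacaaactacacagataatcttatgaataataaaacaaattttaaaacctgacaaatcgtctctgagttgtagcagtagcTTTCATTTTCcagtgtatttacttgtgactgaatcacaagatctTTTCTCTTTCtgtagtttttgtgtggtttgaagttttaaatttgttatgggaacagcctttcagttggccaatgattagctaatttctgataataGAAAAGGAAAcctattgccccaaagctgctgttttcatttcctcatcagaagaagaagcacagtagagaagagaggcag
Ncf1: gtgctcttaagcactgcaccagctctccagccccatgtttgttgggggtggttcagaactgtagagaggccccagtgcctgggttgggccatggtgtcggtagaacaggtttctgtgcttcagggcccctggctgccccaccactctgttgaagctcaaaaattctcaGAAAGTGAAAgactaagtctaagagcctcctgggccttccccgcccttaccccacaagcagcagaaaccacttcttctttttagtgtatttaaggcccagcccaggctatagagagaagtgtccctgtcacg
Cyba: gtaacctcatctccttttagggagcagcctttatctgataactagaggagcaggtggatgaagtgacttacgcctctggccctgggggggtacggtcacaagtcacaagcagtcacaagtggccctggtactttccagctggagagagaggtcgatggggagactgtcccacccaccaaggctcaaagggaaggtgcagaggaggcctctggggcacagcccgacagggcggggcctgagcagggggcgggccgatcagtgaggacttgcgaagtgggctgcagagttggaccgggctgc

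The Cybb window held this GAAA repeat at 3 places, which began 168, 124 and 29 bases before the start site, the first 2 of them on the opposite strand. The Ncf1 window held it at 1 place, 82 bases before the start site. It was not found in the Cyba window or in that of Sod2 (chr17:13007589-13007888, plus strand), and 3.49% of 27025 promoters in the same collection held it on either strand. Of the other motifs searched on both strands, AGGAAG was absent from all 4 windows and present in 35.1% of promoters. It is 1 of the sequences holding GGAA that PU.1 binds, and the others were not searched. GGAA itself, or TTCC on the other strand, lies in all 4 windows, in Cybb also within the marked GAAAAGGAAA. Its share over all promoters was not counted. TGACNNNGC, found in antioxidant response elements, was absent from all 4 windows and present in 12.5% of promoters. GGG, NNNNN and CC in a row, which covers most NF-kB sites, had 1 match in Cybb, 5 in Ncf1, 5 in Cyba and 4 in Sod2, counting matches that overlap on the 2 strands, and was present in 50.4% of promoters. TTCNNNGAA, the palindrome bound by STAT factors, which reads the same on both strands, was present at a single place in Ncf1 and in Sod2 and in 8.47% of promoters. Only these 4 of the 9 genes matched an entry of the collection, and the Cybb and Sod2 windows lie inside the genes as GENCODE M21 draws them, whose starts are further upstream.

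Most of the 9 genes were higher after irradiation. At 8 d 7 were called higher than in NoIR lung (all but Sod2 and Sod3), where 23.6% of all genes tested were called and 13% were called higher. At 11 d 8 were called higher (all but Sod3), beside 37.2% of all genes called and 19.4% called higher, or 7 of the 9 without 11 d replicate 1, when Nos2 was not called. At 14 d 6 were called higher (the oxidase genes and Arg1), beside 38.9% called and 20.0% called higher. The count was also 6 without 14 d replicate 2. Called lower against NoIR lung were 10.6%, 17.8% and 18.9% of all genes at 8, 11 and 14 d, and none of the 9. In the comparison of 14 d with 8 d, 5 were called higher and 2 lower, beside 15.4% of all genes called, with 8.10% higher and 7.29% lower. The median log2 change of the 9 genes against NoIR lung was 1.01, 1.87 and 2.17 at 8, 11 and 14 d, beside 0.01, -0.01 and 0.01 over all genes tested. All 9 were called in the joint test across the groups, as were 39.2% of all genes, with the largest adjusted p for Sod3 (0.014). The comparisons with NoIR lung share the same 3 NoIR libraries.

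**Figure D1:**
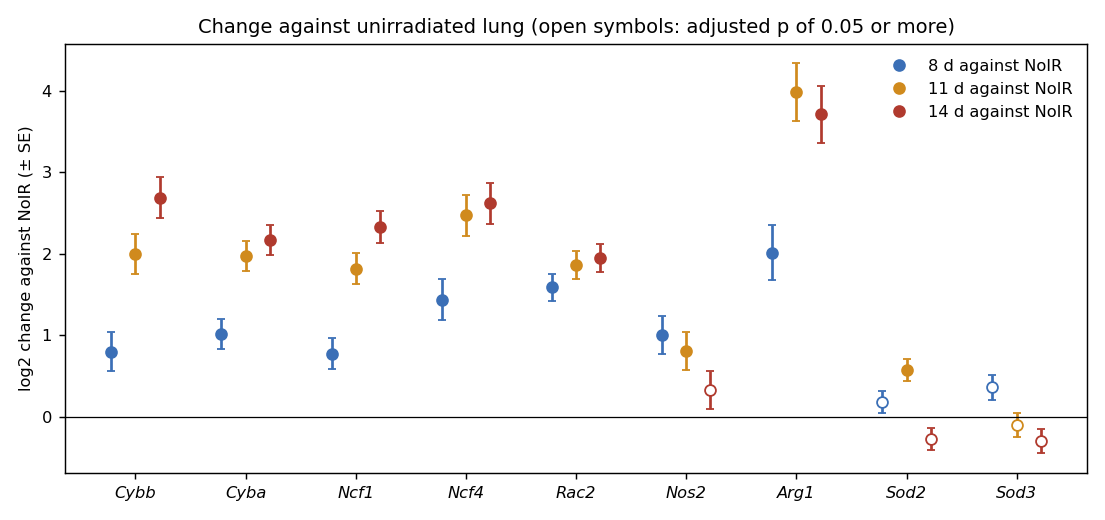
Log2 change against NoIR lung ± SE at 8, 11 and 14 d for each gene, from the edgeR fit of 12 libraries, with open symbols where the adjusted p was 0.05 or more. Rac2 has nearly reached its 14 d change (1.95) at 8 d (1.59), while Cybb has 0.80 at 8 d and 2.69 at 14 d.

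The oxidase genes were higher than in NoIR lung at each time. Cybb (chromosome X, 9435252 to 9487771, minus strand), the catalytic chain, had 77.0, 66.7 and 85.1 CPM in NoIR lung, 162, 123.5 and 113 CPM at 8 d, 458, 232 and 226 CPM at 11 d and 555.5, 450.1 and 470 CPM at 14 d. Every irradiated library lay above every NoIR library, and 11 d replicate 1 was at about the level of the 14 d libraries. Against NoIR lung the log2 change of Cybb was 0.80 at 8 d (SE 0.24, edgeR adjusted p = 0.025), 2.0 at 11 d (SE 0.25, adjusted p = 2.7e-05) and 2.69 at 14 d (SE 0.25, adjusted p = 1.7e-06), the last a 6.45-fold difference. The 8 d call was lost without 8 d replicate 1 (log2 change 0.63, adjusted p = 0.091), NoIR replicate 1 (0.81, adjusted p = 0.073) or NoIR replicate 2 (0.71, adjusted p = 0.098). In bulk lung, more cells of a type and more RNA per cell cannot be told apart, here and in all results that follow.

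Cyba (chromosome 8, 122424776 to 122432930, minus strand), which stabilises the catalytic chain, had 42.7, 46.3 and 48.4 CPM in NoIR lung, 105.0, 95.4 and 77.5 CPM at 8 d, 239, 153 and 149.7 CPM at 11 d and 237, 186 and 196 CPM at 14 d. No 8 d library reached an 11 d library, while the 11 d and 14 d libraries overlapped. Its log2 change against NoIR lung was 1.02 at 8 d (SE 0.18, edgeR adjusted p = 0.0011), 1.98 at 11 d (SE 0.19, adjusted p = 3.5e-06) and 2.17 at 14 d (SE 0.19, adjusted p = 9.3e-07).

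Ncf1 (chromosome 5, 134220053 to 134229625, minus strand) encodes the organiser that carries the cytosolic subunits to the membrane. It averaged 38.3 ± 2.11 CPM in NoIR lung, 65.7 ± 8.43 CPM at 8 d, 135 ± 45.7 CPM at 11 d and 193 ± 19.1 CPM at 14 d (SD, n = 3 each). Each irradiated group lay wholly above NoIR lung, and the large SD at 11 d came from replicate 1, at 188 CPM beside 114 and 104 CPM. The log2 change of Ncf1 was 0.78 at 8 d (SE 0.19, edgeR adjusted p = 0.0090), 1.82 at 11 d (SE 0.19, adjusted p = 9.0e-06) and 2.33 at 14 d (SE 0.20, adjusted p = 8.6e-07). Ncf1 shares 408 exonic bases with Gtf2ird2 on the opposite strand, and how the counting treated strand is not stated. Gtf2ird2 itself held 1919 counts over all 12 libraries, while Ncf1 held 3115 in the NoIR libraries and 13925 in the 14 d libraries together.

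Ncf4 (chromosome 15, 78244801 to 78262580, plus strand), whose product binds phosphoinositides on phagosomes, was the lowest of the oxidase genes in CPM. It had 3.99, 4.35 and 4.77 CPM in NoIR lung, 12.3, 13.02 and 10.3 CPM at 8 d, 35.8, 18.9 and 18.1 CPM at 11 d and 31.1, 21.1 and 28.7 CPM at 14 d. Its log2 change against NoIR lung was 1.44 at 8 d (SE 0.25, edgeR adjusted p = 0.00086), 2.47 at 11 d (SE 0.25, adjusted p = 6.5e-06) and 2.62 at 14 d (SE 0.25, adjusted p = 2.2e-06).

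Rac2 (chromosome 15, 78559167 to 78572783, minus strand), the Rac GTPase of blood cells, followed another course. It had 13.4, 14.9 and 18.5 CPM in NoIR lung, 48.1, 48.7 and 44.0 CPM at 8 d, 68.8, 51.6 and 50.3 CPM at 11 d and 66.7, 48.5 and 65.7 CPM at 14 d. The 8 d libraries already stood clear of NoIR lung by a log2 change of 1.59 (SE 0.17, edgeR adjusted p = 2.6e-05), and the change was 1.87 at 11 d (SE 0.17) and 1.95 at 14 d (SE 0.17). Neither later time differed from 8 d by a called change, with a log2 change of 0.28 at 11 d (SE 0.17, adjusted p = 0.45) and 0.36 at 14 d (SE 0.17, adjusted p = 0.17). All 11 d libraries nonetheless lay above all 8 d libraries, and the 14 d libraries overlapped those of 8 d.

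**Figure D2:**
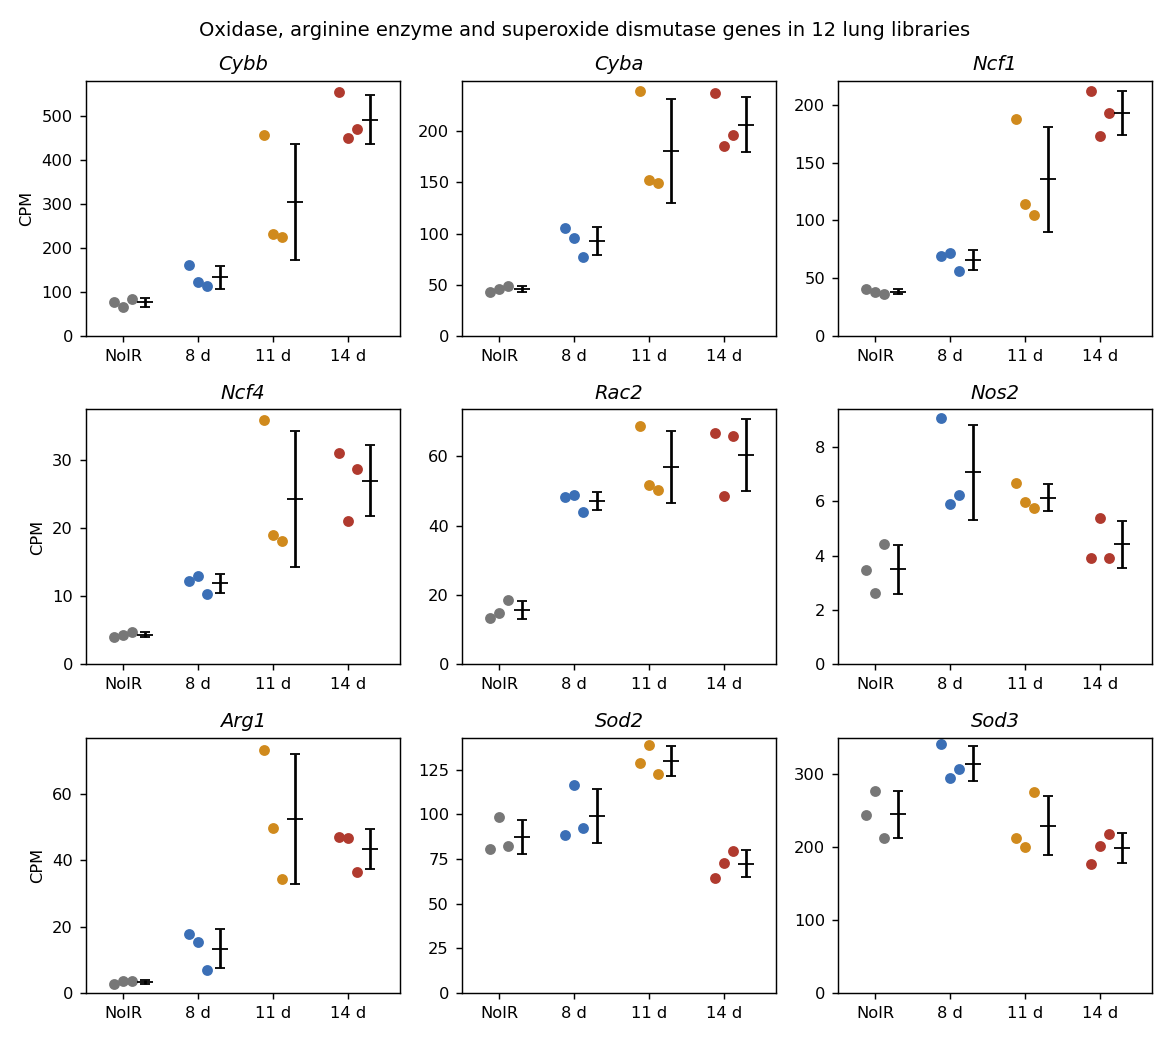
CPM (vertical axes, linear from 0) of each of the 9 genes in the 12 libraries by group, with 1 point per library and bars for the mean ± SD of 3 libraries. The 5 oxidase genes and Arg1 stand above NoIR lung at every time, with 11 d replicate 1 highest of its group in each, while Sod2 peaks at 11 d and Sod3 at 8 d.

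The oxidase genes other than Rac2 differed between 8 d and the later times. From 8 d to 11 d the log2 change was 1.20 for Cybb (SE 0.24, edgeR adjusted p = 0.021), 0.96 for Cyba (SE 0.18, adjusted p = 0.018), 1.04 for Ncf1 (SE 0.19, adjusted p = 0.016) and 1.03 for Ncf4 (SE 0.24, adjusted p = 0.038). With Arg1 these were 5 of the 9 genes called in that comparison, all higher at 11 d, where 2.14% of all genes tested were called and 1.75% were called higher. Without 11 d replicate 1 the calls of Cybb (0.78, adjusted p = 0.089), Cyba (0.71, adjusted p = 0.086) and Ncf4 (0.64, adjusted p = 0.19) were lost. All 5 were lost without 8 d replicate 3, with adjusted p between 0.087 and 0.20. Their log2 changes were then 1.09 for Cybb, 0.85 for Cyba, 0.94 for Ncf1, 0.94 for Ncf4 and 1.65 for Arg1. The Ncf4 call was the least firm. It was lost in 9 of 21 alternatives, among them scaling by library size alone (adjusted p = 0.051), limma-voom (0.055), and leaving out 8 d replicate 1 (0.093), 14 d replicate 1 (0.053), NoIR replicate 1 (0.052) or NoIR replicate 2 (0.059). A fit of the 8 d and 11 d libraries alone called only Arg1 of the 9. The log2 changes were then 1.21 for Cybb, 0.97 for Cyba, 1.05 for Ncf1 and 1.04 for Ncf4, with adjusted p of 0.051 to 0.077. At 14 d against 8 d these 4 genes were called in the same direction, by 1.89 for Cybb (SE 0.24, adjusted p = 0.00024), 1.55 for Ncf1 (SE 0.19, adjusted p = 0.00019), 1.18 for Ncf4 (SE 0.24, adjusted p = 0.0039) and 1.16 for Cyba (SE 0.18, adjusted p = 0.00076). From 11 d to 14 d Cybb (0.69, SE 0.24, adjusted p = 0.16) and Ncf1 (0.51, SE 0.19, adjusted p = 0.19) were not called, but both were called without 11 d replicate 1, at 1.10 (adjusted p = 0.0038) and 0.82 (adjusted p = 0.0069).

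Without 11 d replicate 1 the log2 changes at 11 d against NoIR lung were 1.59 for Cybb, 1.72 for Cyba, 1.51 for Ncf1, 2.08 for Ncf4 and 1.71 for Rac2, each still called. Without 14 d replicate 2 those at 14 d were 2.75 for Cybb, 2.24 for Cyba, 2.40 for Ncf1, 2.77 for Ncf4 and 2.09 for Rac2, also called.

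The ratio of Cybb to Rac2 within a library, chosen after the values above were seen, is given as a description of that difference in course, with no test. The log2 ratio of CPM (with 0.5 CPM added to each) was 2.48, 2.12 and 2.17 in NoIR lung, 1.74, 1.33 and 1.36 at 8 d, 2.73, 2.16 and 2.16 at 11 d and 3.05, 3.20 and 2.83 at 14 d. All 8 d libraries lay below all others, and all 14 d libraries above.

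Per kilobase of exon the order of the 5 oxidase genes could be read across genes. Cyba was highest in NoIR lung at 44.1 CPM per kb, followed by Cybb at 13.1, Ncf1 at 10.5, Rac2 at 5.03 and Ncf4 at 2.17 CPM per kb. At 14 d the mean levels were 199 CPM per kb for Cyba, 84.7 for Cybb, 52.6 for Ncf1, 19.4 for Rac2 and 13.4 for Ncf4. The order was the same at 8 d and 11 d, where Rac2 had 15.1 and 18.3 CPM per kb. The exon lengths are those of all annotated exons joined, which need not be those of the transcripts present.

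**Figure D3:**
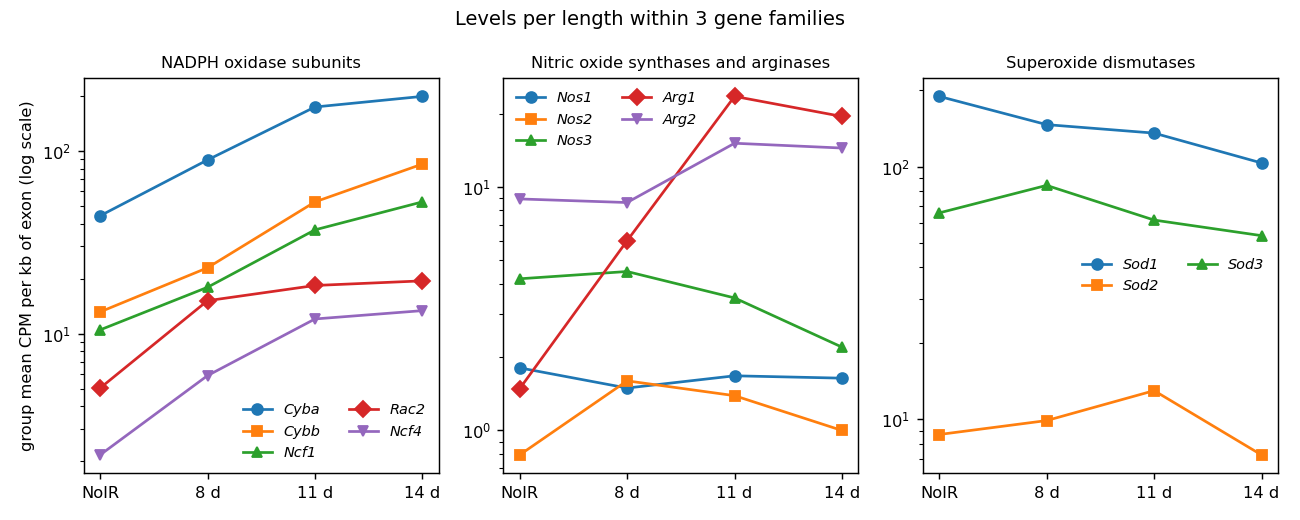
Group mean CPM per kilobase of exon (log axis) by group for the oxidase subunits, for the nitric oxide synthases with the arginases, and for the superoxide dismutases. Arg1 is the highest of its panel at 11 d (23.5 CPM per kb) and 14 d (19.5), against 1.48 in NoIR lung, while Nos2 stays at or below 1.60 CPM per kb.

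Other oxidase components were taken from a list of 15 genes, of which 10 were tested. Compared with NoIR lung 2 were called higher and 2 lower at 8 d, 5 and 2 at 11 d, and 4 and 2 at 14 d, with median log2 changes of 0.19, 0.41 and 0.16, beside 0.01, -0.01 and 0.01 over all genes. In either direction that is 4, 7 and 6 of 10, beside 23.6%, 37.2% and 38.9% of all genes. At 11 d 4 were higher and 1 lower without 11 d replicate 1 (median 0.31). At 14 d the counts without 14 d replicate 2 were also 4 and 1 (median 0.24). Vav1, an exchange factor that loads Rac with GTP in blood cells, was called at each time, with log2 changes of 1.48, 2.44 and 2.45. Hvcn1, the proton channel that balances the charge the oxidase moves, changed by 1.44 at 11 d and 1.81 at 14 d, and the kinase gene Prkcd, whose product phosphorylates the organiser subunit, by 0.96 and 1.44. Neither was called at 8 d, although Hvcn1 was without 11 d replicate 1 (0.49, edgeR adjusted p = 0.027). BC017643, now named Cybc1, a chaperone of the membrane chains, had 0.59 at 11 d and 0.70 at 14 d. Its 11 d call was lost without 11 d replicate 1 (0.44, adjusted p = 0.064).

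The oxidase genes below that are not of phagocytes were called lower or not called, apart from Noxo1 at 8 d and 11 d. Nox4, a constitutively active homologue of fibroblasts and smooth muscle, was lower than in NoIR lung, with log2 changes of -0.79 at 8 d (SE 0.21), -0.87 at 11 d (SE 0.21) and -0.68 at 14 d (SE 0.21), each called. The 14 d call was lost without 14 d replicate 2 (-0.57, edgeR adjusted p = 0.070). Noxa1, the activator of Nox1, was lower too, at -1.06, -1.06 and -1.35, each called. Its 11 d call was lost without 11 d replicate 1 (-0.82, adjusted p = 0.13). Noxo1, its organiser, was called higher at 8 d (1.27) and 11 d (0.88), and Nox1 itself was not called at any time, with log2 changes between -0.34 and 0.53. Rac1, the Rac GTPase of most cells, was not called at any time either, with log2 changes of -0.27 at 8 d, -0.17 at 11 d and -0.19 at 14 d, each with an SE of 0.10.

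Nos2 and Arg1 had like CPM in NoIR lung and were far apart at 11 d and 14 d. Nos2 (chromosome 11, 78920787 to 78960254, plus strand), the inducible synthase, had 3.47, 2.62 and 4.41 CPM in NoIR lung, 9.04, 5.90 and 6.21 CPM at 8 d, 6.68, 5.95 and 5.75 CPM at 11 d and 3.91, 5.39 and 3.92 CPM at 14 d. These values rest on 71 to 193 counts per library. The 8 d and 11 d libraries all lay above NoIR lung, and the 14 d libraries overlapped it. Its log2 change was 1.01 at 8 d (SE 0.23, edgeR adjusted p = 0.0060) and 0.81 at 11 d (SE 0.23, adjusted p = 0.014), and at 14 d it was 0.34 and not called (SE 0.23, adjusted p = 0.29). The 11 d call was lost without 11 d replicate 1 (0.74, adjusted p = 0.055) or NoIR replicate 2 (0.64, adjusted p = 0.065). At 14 d against 8 d the log2 change of Nos2 was -0.67 and missed the threshold (SE 0.23, adjusted p = 0.064), although no 14 d library reached an 8 d library. It was called by DESeq2 (adjusted p = 0.039) and without 8 d replicate 2 (-0.78, adjusted p = 0.045) or 14 d replicate 2 (-0.85, adjusted p = 0.046).

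Arg1 (chromosome 10, 24915221 to 24927484, minus strand) had the largest log2 change of the 9 genes against NoIR lung at each time. It had 2.71, 3.73 and 3.47 CPM in NoIR lung, 17.9, 15.4 and 6.79 CPM at 8 d, 73.3, 49.6 and 34.3 CPM at 11 d and 47.0, 46.7 and 36.3 CPM at 14 d. All irradiated libraries lay above NoIR lung, the 8 d libraries below the later ones, and the 11 d and 14 d libraries overlapped. The log2 change against NoIR lung was 2.01 at 8 d (SE 0.34, edgeR adjusted p = 0.00066), 3.99 at 11 d (SE 0.35, adjusted p = 2.1e-06), a 15.9-fold difference, and 3.71 at 14 d (SE 0.35, adjusted p = 1.8e-06), a 13.1-fold difference. Without 11 d replicate 1 the 11 d change was 3.66, and without 14 d replicate 2 the 14 d change was 3.65. From 8 d to 11 d it was 1.97 (SE 0.31, adjusted p = 0.010) and between 14 d and 8 d 1.70 (SE 0.31, adjusted p = 0.0023). From 11 d to 14 d the change of -0.28 was not called (SE 0.30, adjusted p = 0.70).

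The log2 ratio of Nos2 to Arg1 within a library, with 0.5 CPM added to each, averaged 0.06 ± 0.43 in NoIR lung, -0.79 ± 0.61 at 8 d, -2.93 ± 0.44 at 11 d and -3.16 ± 0.23 at 14 d (SD, n = 3 each). In CPM, Arg1 averaged 52.4 beside 6.13 for Nos2 at 11 d, and 43.4 beside 4.41 at 14 d. The groups differed in an exact permutation test over all 369600 arrangements of the libraries (p = 0.000909, adjusted over the 2 ratios compared 0.00182, with 6.49e-05 the smallest p possible). The 11 d and 14 d libraries, at -2.47 or lower, did not overlap the 8 d and NoIR libraries, at -1.32 or higher. At 8 d the ratio of replicate 3 (-0.12) lay within the range of the NoIR libraries (-0.44 to 0.31).

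**Figure D4:**
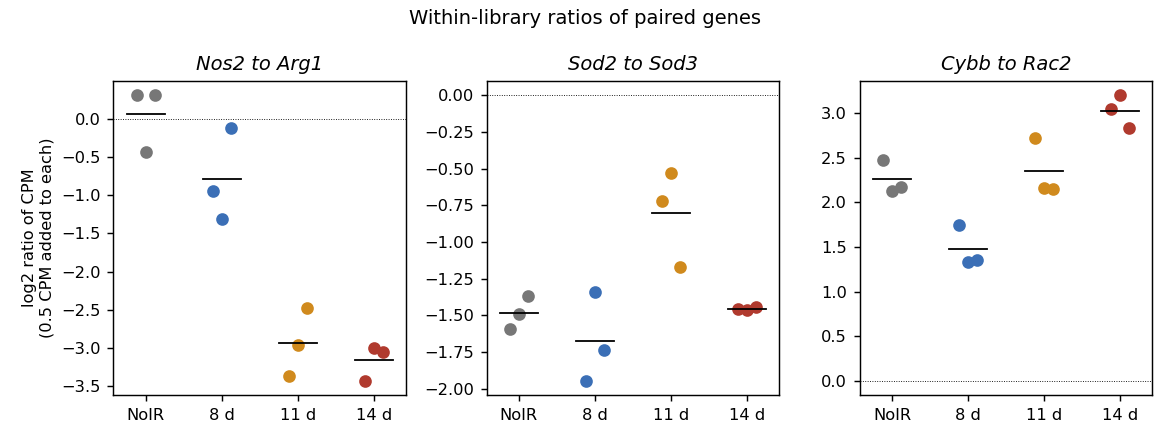
Log2 ratio of CPM within each library, with 0.5 CPM added to both genes, for Nos2 to Arg1, Sod2 to Sod3 and Cybb to Rac2, with 1 point per library and a line at each group mean. The dotted line marks equal CPM. The Nos2 to Arg1 ratio is near it in NoIR lung and at -2.93 and -3.16 at 11 and 14 d.

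Both families had other members at other levels. Per kilobase of exon, Nos3, the endothelial synthase, averaged 4.19, 4.49, 3.50 and 2.20 CPM per kb in NoIR lung and at 8, 11 and 14 d, Nos1, the neuronal synthase, 1.81, 1.49, 1.68 and 1.64 CPM per kb, and Nos2 0.793, 1.60, 1.39 and 0.9995 CPM per kb. The log2 change of Nos3 against NoIR lung was 0.10 at 8 d (SE 0.19) and -0.26 at 11 d (SE 0.19), neither called, and -0.93 at 14 d (SE 0.20, edgeR adjusted p = 0.0017). Nos1 was not called at any time. Of 9 endothelial markers 5, 8 and 9 were called lower at 8, 11 and 14 d (7 at 11 d without 11 d replicate 1). Over all genes 10.6%, 17.8% and 18.9% were called lower. The part of the endothelial markers in the lower Nos3 was not tested. Arg2, the mitochondrial arginase, averaged 8.92, 8.62, 15.1 and 14.4 CPM per kb, above Arg1 in NoIR lung (1.48) and at 8 d (6.01) and below it at 11 d (23.5) and 14 d (19.5). Its log2 change was 0.76 at 11 d (SE 0.25, adjusted p = 0.025) and 0.69 at 14 d (SE 0.24, adjusted p = 0.036). The 11 d call was lost without 11 d replicate 1 (0.68, edgeR adjusted p = 0.086) and the 14 d call without 14 d replicate 2 (0.66, adjusted p = 0.082).

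Of 18 other genes of nitric oxide synthesis and signalling, 3 were called higher and 6 lower at 8 d, 2 and 6 at 11 d, and 3 and 9 at 14 d, with median log2 changes of -0.08, -0.11 and -0.43. In either direction 9, 8 and 12 of 18 were called, beside 23.6%, 37.2% and 38.9% of all genes. The counts were 3 and 6 at 11 d without 11 d replicate 1. They were 3 and 7 at 14 d without 14 d replicate 2. Ass1, which with argininosuccinate lyase remakes arginine from citrulline, was higher by 1.20, 1.95 and 1.52, and Gch1, the first enzyme in the synthesis of the cofactor tetrahydrobiopterin, by 0.70, 1.23 and 0.72. Gucy1a3, a subunit of the receptor for nitric oxide, was lower, with log2 changes of -0.89, -1.31 and -1.48, as was Ddah2, which degrades an inhibitor of the synthases, with -0.45, -0.90 and -1.47. Each of these 4 genes was called at all 3 times. Of 11 other genes of arginine and polyamine use, 4 were called higher at 8 d, 7 at 11 d and 5 at 14 d, when 1 was lower, with medians of 0.52, 0.69 and 0.32. Beside these counts, 23.6%, 37.2% and 38.9% of all genes were called in either direction. At 11 d 5 of the 11 were called without 11 d replicate 1. At 14 d 3 were higher and 1 lower without 14 d replicate 2, and this share, 4 of 11, was near that of all genes. Gatm, which uses arginine to make guanidinoacetate for creatine, had the changes 2.62 (SE 0.21), 3.60 (SE 0.22) and 3.85 (SE 0.22). Odc1, which turns ornithine into putrescine, was called at 8 d (0.91) and 11 d (0.77) and Srm, spermidine synthase, likewise (0.58 and 0.95).

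Markers of both kinds of macrophage activation were counted beside Nos2 and Arg1. Of 14 classical markers 13 were called higher at 8 d, 13 at 11 d and 11 at 14 d, with median log2 changes of 2.10, 2.87 and 2.50, among them Cxcl9 (4.16, 5.20 and 5.61) and Cxcl10 (4.96, 5.36 and 4.24), chemokines for activated T cells. Of 12 alternative markers 7 were higher and 2 lower at 8 d, 8 and 1 at 11 d, and 9 and 2 at 14 d, with medians of 1.22, 1.20 and 1.80. Over all genes 23.6%, 37.2% and 38.9% were called in either direction, with medians of 0.01, -0.01 and 0.01. The summed level of the alternative markers was 1102 to 1425 CPM in NoIR lung and 909.5 to 1097 CPM at 8 d. It was 1406 to 1476 CPM at 11 d and 1251 to 1427 CPM at 14 d. That of the classical markers was 278.5 to 366 CPM in NoIR lung and 694 to 719 CPM at 8 d. It was 828 to 1130 CPM at 11 d and 667 to 902 CPM at 14 d. The counts of both lists at 11 d were the same without 11 d replicate 1. Those at 14 d without 14 d replicate 2 had 1 alternative marker lower in place of 2. Retnla, a secreted resistin-like protein, had 2.88, 4.20 and 3.55 and the lectin gene Clec10a 1.96, 2.47 and 2.71, while Chil3, a chitinase-like protein also made by alveolar macrophages, was lower, at -1.85, -1.07 and -1.03, each called.

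Sod2 and Sod3 had smaller log2 changes against NoIR lung than the oxidase genes, in both directions. Sod2 (chromosome 17, 13006846 to 13040063, plus strand) had 80.7, 98.3 and 82.5 CPM in NoIR lung, 88.4, 116 and 92.2 CPM at 8 d, 128.6, 139 and 122.5 CPM at 11 d and 64.5, 72.9 and 79.6 CPM at 14 d. The 11 d libraries lay above all others and the 14 d libraries below all others. The log2 change against NoIR lung was 0.58 at 11 d (SE 0.14, edgeR adjusted p = 0.0042), while 0.18 at 8 d (SE 0.14, adjusted p = 0.37) and -0.27 at 14 d (SE 0.14, adjusted p = 0.14) were not called. Unlike the oxidase genes, 11 d replicate 1 was not the highest of its group, and without it the 11 d change was 0.58 (adjusted p = 0.014).

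Sod2 was the only one of the 9 genes called between 14 d and 11 d, at -0.85 (SE 0.14, edgeR adjusted p = 0.010), in a comparison in which 1.80% of all genes tested were called and 0.983% were called lower. That call was lost without 11 d replicate 2 (-0.80, adjusted p = 0.078) or 14 d replicate 1 (-0.77, adjusted p = 0.085). Set against 8 d, Sod2 at 14 d had -0.45 (SE 0.14, adjusted p = 0.037), a call that leaving out 8 d replicate 2 (-0.32, adjusted p = 0.12), 8 d replicate 3 (-0.50, adjusted p = 0.062), 14 d replicate 1 (-0.38, adjusted p = 0.16), 14 d replicate 2 (-0.46, adjusted p = 0.081) or NoIR replicate 3 (-0.44, adjusted p = 0.055) each ended. It was also lost in a fit of the 8 d and 14 d libraries alone (-0.46, adjusted p = 0.11).

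Sod3 (chromosome 5, 52363791 to 52371418, plus strand) had 244.9, 276.8 and 213 CPM in NoIR lung, 342, 295 and 308 CPM at 8 d, 212, 201 and 276 CPM at 11 d and 178, 202 and 218 CPM at 14 d. The 8 d libraries lay above all others, and the other groups overlapped. No comparison with NoIR lung was called, with log2 changes of 0.36 at 8 d (SE 0.15, edgeR adjusted p = 0.094), -0.09 at 11 d (SE 0.15, adjusted p = 0.65) and -0.30 at 14 d (SE 0.15, adjusted p = 0.13). Set against 8 d, the change of -0.66 at 14 d was called (SE 0.15, adjusted p = 0.0079), although not without 14 d replicate 1 (-0.58, adjusted p = 0.052). Of 10 smooth muscle and pericyte markers, the cells of the vessel wall that are known to make Sod3, 6 were also called lower between 14 d and 8 d (4 without 14 d replicate 2), beside 7.29% of all genes. Against NoIR lung, where Sod3 was not called, 1, 5 and 9 of them were called lower at 8, 11 and 14 d. Those counts were 4 at 11 d without 11 d replicate 1 and 10 at 14 d without 14 d replicate 2. The summed level of these markers lay between 727 and 885 CPM in NoIR lung and 569 and 821 CPM at 8 d. It lay between 448 and 605 CPM at 11 d and 401 and 455 CPM at 14 d. The part of those cells in the Sod3 result was not tested.

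The log2 ratio of Sod2 to Sod3 averaged -1.48 ± 0.11 in NoIR lung, -1.67 ± 0.31 at 8 d, -0.81 ± 0.33 at 11 d and -1.46 ± 0.01 at 14 d (SD, n = 3 each), so that all 3 of the 11 d libraries lay above every other library. The groups differed in the exact permutation test (p = 0.00701, which remains 0.00701 adjusted over the 2 ratios). Sod1, the cytosolic dismutase and the highest of the family, averaged 189.5, 146.5, 135.6 and 103 CPM per kb in NoIR lung and at 8, 11 and 14 d, Sod3 65.6, 84.2, 61.4 and 53.3 CPM per kb and Sod2 8.71, 9.89, 12.99 and 7.23 CPM per kb. Sod1 was called lower at 11 d (log2 change -0.48, SE 0.16, edgeR adjusted p = 0.025) and 14 d (-0.88, SE 0.16, adjusted p = 0.00044). The first call was lost without 11 d replicate 1 (-0.38, adjusted p = 0.11).

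Of 17 other genes that remove superoxide or peroxide, 3 were called higher and 2 lower at 8 d, 7 and 3 at 11 d, and 6 and 3 at 14 d, with median log2 changes of 0.11, 0.23 and 0.16. The 5 of 17 called at 8 d are a share near the 23.6% of all genes. In either direction 10 and 9 of 17 were called at 11 and 14 d beside 37.2% and 38.9%. The 11 d counts were 6 and 2 without 11 d replicate 1. Those at 14 d stayed at 6 and 3 without 14 d replicate 2. Catalase (Cat) was lower, with log2 changes of -0.65, -0.98 and -0.92, and so was the peroxiredoxin gene Prdx6, which is abundant in lung epithelium, with -1.03, -1.0 and -1.32. Srxn1, which restores overoxidised peroxiredoxins, was higher by 1.05, 1.33 and 1.08, the thioredoxin reductase gene Txnrd1 by 0.55, 0.86 and 0.79 and Prdx5 by 0.62, 1.01 and 0.92. All 5 were called at each time.

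Leukocyte RNA as a whole was also higher after irradiation. All 7 pan-leukocyte genes (such as Ptprc, which encodes CD45) were called higher at each time, and their mean log2 CPM was 6.02 ± 0.11 in NoIR lung, 7.11 ± 0.17 at 8 d, 7.59 ± 0.28 at 11 d and 7.85 ± 0.19 at 14 d (SD, n = 3 each), a difference from NoIR lung of 1.09, 1.57 and 1.83 (1.41 at 11 d without replicate 1 and 1.94 at 14 d without replicate 2). The 10 macrophage markers summed to 409 to 473 CPM in NoIR lung, 510.0 to 689 CPM at 8 d, 1051 to 1816 CPM at 11 d and 1999 to 2417 CPM at 14 d, with 5, 8 and 9 of them called higher and 2, 1 and 1 lower against NoIR lung. The 10 neutrophil markers in the tables summed to 40.0 to 104 CPM, 115 to 256 CPM, 132 to 199.6 CPM and 119 to 132 CPM, with 4, 5 and 3 of the 8 tested called higher, but 2 at 11 d without 11 d replicate 1 and 2 at 14 d without 14 d replicate 2. None of these markers was at 0 in any group. The 3 of 8 called at 14 d are a share near the 38.9% of all genes called, and 2 of 8 is a smaller one. Monocyte markers were called higher in 8, 7 and 7 of 10 cases and lower in 2, 2 and 3 (2 at 14 d without 14 d replicate 2), with median log2 changes of 1.66, 1.92 and 1.96. Their summed level, in which the most abundant markers weigh most, was 1041 to 1238 CPM at 8 d, 1204 to 1235 CPM at 11 d and 1064 to 1101 CPM at 14 d beside 1689 to 2180 CPM in NoIR lung. Alveolar macrophage markers were called higher in 2, 2 and 1 of 10 cases and lower in 7, 6 and 6. Their summed level was 498 to 558 CPM in NoIR lung and 362 to 470 CPM at 8 d. It was 503 to 625 CPM at 11 d and 542 to 710 CPM at 14 d. The part of these cell types in the levels of the 9 genes was not tested.

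Set beside the pan-leukocyte genes of the same library, the 9 genes fell into several courses, given as values with no test. Relative to that mean, Cybb differed from NoIR lung by -0.30 at 8 d, 0.35 at 11 d and 0.86 at 14 d on the log2 scale, Ncf1 by -0.32, 0.20 and 0.50 and Cyba by -0.08, 0.37 and 0.34. Rac2 differed by 0.51, 0.29 and 0.12, with every 8 d library above every NoIR library, and Ncf4 by 0.35, 0.83 and 0.78. Cybb had its 3 highest relative levels in the 14 d libraries, where it stood 0.98 to 1.18 above the leukocyte mean. Arg1 differed by 0.83, 2.36 and 1.89, with 8 d replicate 3 (-4.18) within the range of the NoIR libraries (-4.51 to -4.07) and all later libraries above it. Nos2 differed by -0.07 at 8 d, -0.73 at 11 d and -1.48 at 14 d, so that its 11 d libraries lay above all NoIR libraries in CPM and below them all relative to leukocyte RNA. Sod2 (-0.91, -0.99 and -2.10) and Sod3 (-0.72, -1.67 and -2.13), which are not restricted to leukocytes, differed downwards at all 3 times. The 11 d differences without 11 d replicate 1 were 0.18 for Cybb, 0.10 for Ncf1, 0.32 for Cyba, 0.31 for Rac2, 0.68 for Ncf4, 2.25 for Arg1, -0.63 for Nos2, -0.82 for Sod2 and -1.46 for Sod3. Leaving out 14 d replicate 2 moved the 14 d difference of Nos2 most, to -1.74.

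**Figure D5:**
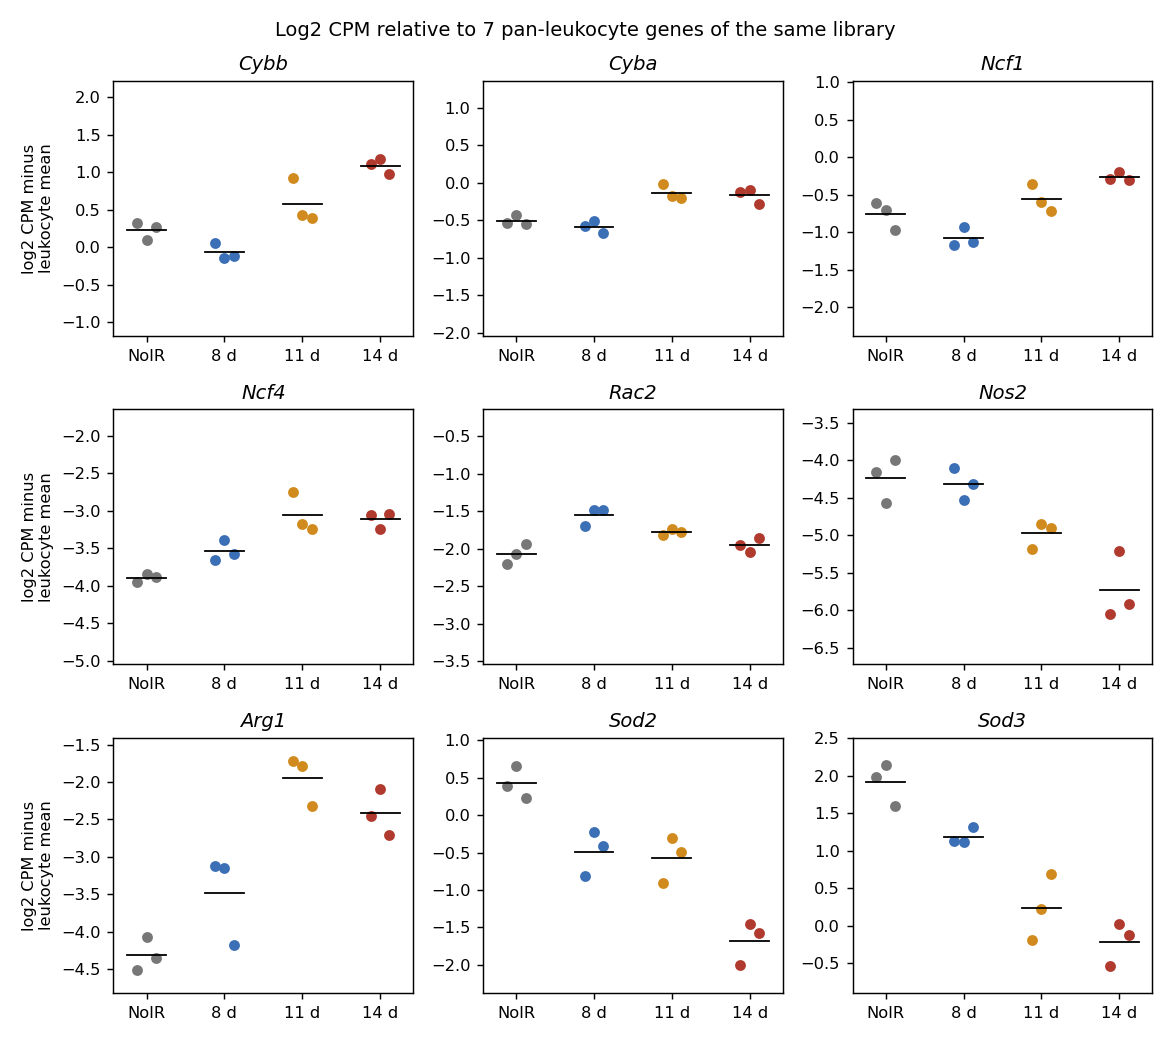
Log2 CPM of each gene minus the mean log2 CPM of 7 pan-leukocyte genes in the same library, with 1 point per library and a line at the group mean. Each panel spans the same number of log2 units. Cybb lies highest at 14 d, Rac2 at 8 d and Arg1 at 11 d, while Nos2, Sod2 and Sod3 lie lowest at 14 d.

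The genes whose pattern was most like each of the 9 were sought among 11469 genes averaging 5 CPM or more, by Pearson's r of log2(CPM + 0.5) over the 12 libraries, which share the group differences and depth and give no p here. Cybb was closest to Sgpl1 (r = 0.992), sphingosine-1-phosphate lyase, and to the proton channel gene Hvcn1 (0.990). Ncf1 had Edem1 (0.991) among its 2 closest genes, and Cyba was closest to Efhd2 (0.995) and the Fc receptor gene Fcgr1 (0.995). Ncf4 was closest to Arpc1b (0.994), of the actin-nucleating Arp2/3 complex, and to the phosphatase gene Ptpn6 (0.994), and Rac2 to Epsti1 (0.993), an interferon-induced gene, and Cd72 (0.989), a receptor of B cells. Arg1 was closest to the galectin gene Lgals3 (0.988) and the hexokinase gene Hk3 (0.983). The other genes had looser matches: Nos2 with Rfx5 (0.936), a regulator of MHC class II genes, and Slc27a3 (0.934), Sod2 with Rpn1 (0.941) and Sec23b (0.928), both of the secretory pathway, and Sod3 with Ring1 (0.896) and Nqo1 (0.890).

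Among the 9 genes themselves r was 0.990 between Cybb and Ncf1 and 0.992 between Cyba and Ncf4. Between Cybb and Rac2 it was 0.842. Arg1 followed the oxidase genes more closely (0.979 with Cyba) than it did Nos2 (0.447). Cybb had an r of 0.246 with Nos2 and of -0.591 with Sod3.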

How the data were processed

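The deposited values were counts per gene symbol for 12 lung libraries, as the authors made them. TopHat and mm10 are named in the submitters' processing notes. The sources used here give no TopHat version, counting program, annotation or strand setting. Libraries came from 1.3 µg of Trizol RNA with the NEBNext Ultra II Directional kit, per the labels' protocols. The 35 symbols on more than 1 line (79 lines, none of the 9 genes) were summed. From these counts 1 edgeR 4.0.16 quasi-likelihood fit of the 12 libraries was made in R 4.3.3, with the default expression filter and TMM scaling. P-values were adjusted over all 16484 genes tested by Benjamini-Hochberg, and each SE was derived from the log2 change and its F statistic. CPM use scaled library sizes, and ratios of CPM were compared by an exact permutation test over libraries. CPM per kb divide the group mean by the joined exon length in GENCODE M21, the source of coordinates. Replicates differed by more than sampling noise (chi-square per degree of freedom of 27.8 or more), so none was merged. Replicate numbers were checked for pairing by the correlation of deviations from the group means. All 3 same-numbered pairs of NoIR and 8 d libraries had r over 0.1 (0.14 to 0.22), but no other pair of groups did (8 of 18 pairs in all, range -0.56 to 0.50), and the main fit has no block.

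All 9 genes were named in every comparison. Beside them stand other oxidase genes, nitric oxide synthases, Arg2, Sod1, up to 3 genes per list with the lowest joint p, and the 2 genes most like each member in pattern. Those named as further examples from a list, and the Cybb to Rac2 ratio, were chosen after their values were seen. The genes and all 17 lists were chosen with earlier results of these data known. Tests were run first on simulated data. Alternatives were other scalings and filters, DESeq2 1.42.0, limma-voom 3.58.1, a replicate block, a fit of only the groups compared, removal of Rn45s and haemoglobin genes, other pseudocounts, and leaving out each library. The protein comparisons planned are not analysed here. One further gene is not reported here and was left out of the lists.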

Additional observations from a re-analysis of the deposited data

Results flagged for a closer look

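The differences listed here set the irradiated groups against each other, each tested as a contrast of its own in the edgeR quasi-likelihood fit (adjusted p below 0.05, n = 3 per group). Between 11 d and 8 d the log2 change was 1.20 for Cybb, 0.96 for Cyba, 1.04 for Ncf1, 1.03 for Ncf4 and 1.97 for Arg1, so that the change of each from NoIR lung was larger at 11 d than at 8 d. Between 14 d and 11 d it was -0.85 for Sod2. Between 14 d and 8 d it was 1.89 for Cybb, 1.16 for Cyba, 1.55 for Ncf1, 1.18 for Ncf4, 1.70 for Arg1, -0.45 for Sod2 and -0.66 for Sod3. The least firm were Ncf4 between 11 d and 8 d, whose call was lost in 9 of 21 alternatives, and Sod2 between 14 d and 8 d, lost in 6 of 21. In each of these 13 contrasts the 3 later libraries did not overlap the 3 earlier ones. The contrasts were listed because they were called, so that separation is no further evidence, and its share over all genes was not counted. Rac2 and Nos2 had no called difference between the irradiated groups.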

How the results depend on the processing

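Of 1143 recomputed log2 changes of the 9 genes, over 21 settings and 6 comparisons and 1 further setting for 8 d against NoIR lung, 1105 stayed on the same side of the threshold, 32 lost their call, 6 gained one and none that was called changed direction. The weak point was 11 d against 8 d. There a fit of only the groups compared called 1 of the 9 genes in place of 5 (143 genes in place of 353 overall), and DESeq2 called 868 genes overall. Scaling by library size alone made 60.6% of all calls in it higher, in place of 81.6%, and turned the majority at 14 d against 11 d (54.9% higher in place of 45.3%), 14 d against 8 d (43.4% in place of 52.6%) and 11 d against NoIR lung (49.0% in place of 52.1%). For 14 d against 11 d DESeq2 called 827 genes in place of 296. Leaving out each library left 6 to 7 of the 9 genes called against NoIR lung at 8 d (2593 to 3997 genes overall), 7 to 8 at 11 d (4426 to 6760) and always 6 at 14 d (5184 to 6925), and always 9 in the joint test (5039 to 7312). Between times it gave 0 to 6 for 11 d against 8 d (2 to 545 genes overall; 0 without 8 d replicate 3, 2 without 11 d replicate 1), 0 to 3 for 14 d against 11 d (13 to 681 overall; 3 without 11 d replicate 1, 0 without 11 d replicate 2 or 14 d replicate 1) and 5 to 7 for 14 d against 8 d (1392 to 2599 overall). The exact permutation p ranged from 0.000714 to 0.00182 for Nos2 to Arg1 and 0.00565 to 0.0338 for Sod2 to Sod3. The cause of these changes was not tested, beyond there being fewer libraries.

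With the replicate number as a block the calls among the 9 genes were 7, 8 and 6 against NoIR lung, 5, 1 and 7 between times and 9 in the joint test, as without it. For 8 d against NoIR lung, where the pairing check was met, a fit of those 2 groups alone with the block, chosen after seeing the data, called 7 as well (3387 genes overall). The ratios had exact permutation p of 0.00174 and 0.0226 within the block. Depth bears most on Nos2, at 71 to 193 counts per library, and on Arg1 in NoIR lung, at 269 counts over 3 libraries.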
